A study of Mus musculus with 12 samples.

Results

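The septin family was followed through bulk RNA sequencing of the mouse dentate gyrus, a hippocampal region whose main neurons are granule cells. The family members are the 10 septin genes Sept2 to Sept11, matched by symbol through their Ensembl identifiers, and all 10 were among the 52636 genes of each count table. The family was singled out because Sept4 was higher with a follistatin vector, so values of that comparison describe the choice and are given without a test. All animals were C57BL/6. The libraries formed 4 groups of 3. The Fst vector group is labelled OE+AAV9-CB::Fst, an overexpressing group given an adeno-associated virus of serotype AAV9 that carries the follistatin gene Fst, and its genotype at the chromosomal gene is not stated. The GFP vector group (KO+AAV9-CB::GFP) was Fst knockout given AAV9 carrying green fluorescent protein. The KO group was Fst knockout without a vector and the WT group was wild type without a vector. Follistatin, once secreted, captures activins and so blocks their access to receptors. Age, the cells that the vectors reached and the way the knockout was made remain not given in the sources used here. Nothing states clearly whether a library is 1 mouse or a pool, so each p-value reflects library-to-library spread, which may be partly technical.

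Septins are GTP-binding proteins that join end to end into rod-shaped complexes, and the rods pair into filaments under membranes and along actin and microtubules. Mammalian septins fall into subgroups named for Sept2, Sept3, Sept6 and Sept7, each subgroup takes its own place in the rod, and members of a subgroup can often stand in for each other. Sept7 is the only member of its subgroup. In the mouse brain, Sept3 and Sept5 are mainly neuronal and are found at presynaptic terminals, Sept7 lies at the base of dendritic spines, and filaments that hold Sept2, Sept4, Sept7 and Sept8 line the myelin sheath of oligodendrocytes. Sept4 is also found in astrocytes and related glia, and an alternative product of the gene, ARTS, binds the caspase inhibitor XIAP.

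Sept4 (ENSMUSG00000020486) lies on the plus strand of chromosome 11 at 87568903 to 87590539 in GRCm38, with 18 annotated transcripts. RefSeq gives the gene 4 transcript starts. The counts sum all transcripts of the gene, so they do not tell which start the reads of Sept4 came from, and for that reason the sequence before each separate start is shown. The 250 bases before 3 of the starts follow, from RefSeq's GRCm38.p6 table, plus strand. The other start lies shortly after the second of these, and its window overlaps that one. Capitals mark CAGAC or its reverse complement GTCTG, the short box that SMAD proteins, which carry activin signals to DNA, are known to bind.
Sept4 chr11:87566439-87566688: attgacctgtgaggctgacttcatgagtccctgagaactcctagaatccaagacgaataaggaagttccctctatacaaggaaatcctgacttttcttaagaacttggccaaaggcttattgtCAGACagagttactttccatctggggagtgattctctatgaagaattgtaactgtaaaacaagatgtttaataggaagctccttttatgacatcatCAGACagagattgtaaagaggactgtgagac
Sept4 chr11:87578139-87578388: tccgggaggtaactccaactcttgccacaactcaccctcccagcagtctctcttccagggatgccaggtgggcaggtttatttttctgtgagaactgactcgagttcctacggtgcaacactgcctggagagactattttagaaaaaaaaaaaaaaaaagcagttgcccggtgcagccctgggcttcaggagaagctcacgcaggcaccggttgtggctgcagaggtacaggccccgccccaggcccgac
Sept4 chr11:87580811-87581060: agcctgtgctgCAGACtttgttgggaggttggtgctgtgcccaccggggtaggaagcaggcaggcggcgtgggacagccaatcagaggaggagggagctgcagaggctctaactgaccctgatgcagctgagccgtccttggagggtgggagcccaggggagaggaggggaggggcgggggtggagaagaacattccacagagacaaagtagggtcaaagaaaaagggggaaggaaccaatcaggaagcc
The box occurred 2 times before the first start, 0 times before the second and 1 time before the third, on either strand. Of 32851 windows of this length in the RefSeq table, 42.2% held the box, so its presence is common. The longer palindrome GTCTAGAC, which contains neither form of the box, was in 0 of the 4 Sept4 windows and in 0.167% of all windows. Among the 16 windows of the 7 septins that the table holds (Sept2, Sept4, Sept7, Sept8, Sept9, Sept10 and Sept11), 8 held the box and 0 the palindrome. The first start lies before the annotated GENCODE gene, inside the neighbouring Gm11492, which had 0 counts in all 12 libraries.

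Libraries held 8081824 to 11331337 counts. Fst averaged 186.4 ± 19.3 CPM in the Fst vector group, 0.0325 ± 0.0562 CPM in the GFP vector group, 0.282 ± 0.127 CPM in KO and 3.87 ± 0.547 CPM in WT (CPM is the count of a gene for each 1000000 counts of its library; SD, n = 3 each), which matches the labels. Titles and descriptions disagree on sex for 4 libraries of KO and WT, and libraries are named as in the titles, whose sex fits Xist and Ddx3y in 12 of 12. Counts of annotated ribosomal RNA genes made up 0.0115 to 0.0209% of the libraries Fst M2, Fst F, GFP M2, KO M2 and WT F1, and at most 0.000976% of the others. The 6 granule cell markers (Prox1, C1ql2, Calb1, Dsp, Plk5 and Dock10) summed to 1671 to 1909 CPM in the Fst vector group, 1382 to 2081 CPM in the GFP vector group, 1807 to 1964 CPM in KO and 1828 to 1921 CPM in WT. Among them Dsp averaged 55.1 ± 20.4 CPM with the Fst vector and 162.7 ± 108.7 CPM with the GFP vector, and Plk5 249.1 ± 48.8 CPM with the Fst vector and 154.0 ± 80.9 CPM with the GFP vector (SD, n = 3 each). Neither was called. In bulk samples, fewer cells of a type and less RNA per cell cannot be told apart.

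Levels per length differed widely within the family, with Sept5 and Sept3 at the top and Sept2, as counted, at the bottom. Sept2 shares exons with another gene of the same symbol that was not counted, so its place is uncertain. Its part in the share of its subgroup below is uncertain too. On the scale of CPM per kb of annotated exon, which allows genes to be compared, Sept5 led in every group with 181.3 ± 18.3 in the Fst vector group, 179.7 ± 8.86 in the GFP vector group, 155.2 ± 6.11 in KO and 160.7 ± 5.66 in WT (SD, n = 3 each). Sept3 came next, with 80.8 ± 4.04 in the Fst vector group, 95.7 ± 16.3 in the GFP vector group, 109.1 ± 3.74 in KO and 110.9 ± 0.449 in WT. Sept8 followed at 38.6 ± 2.33, 32.0 ± 5.87, 38.2 ± 0.181 and 38.3 ± 0.293 in the same order of groups. Together, Sept2, Sept4 and Sept5 of the Sept2 subgroup made up 55.7 ± 3.23% of the family's CPM per kb in the Fst vector group, 53.1 ± 1.99% in the GFP vector group, 46.7 ± 0.546% in KO and 47.1 ± 0.887% in WT. The vector groups and the other groups come from separate tables, so vector treatment cannot be told apart from table in these shares. Exon lengths are those of GENCODE M21 with all transcripts merged, and the annotation the authors counted on remains not given in the sources used here.

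The middle of the order held Sept7, Sept11, Sept4 and Sept9. In WT, Sept7 stood at 15.7 ± 0.628 CPM per kb, Sept11 at 14.6 ± 0.238, Sept4 at 11.8 ± 0.699 and Sept9 at 11.0 ± 0.343, and the libraries of Sept4 and Sept9 overlapped. In the Fst vector group, Sept4 stood at rank 4 with 25.5 ± 0.618 CPM per kb, above Sept7 at 16.9 ± 2.14, and their libraries did not overlap. In the GFP vector group (12.4 ± 0.790), in KO (11.0 ± 0.979) and in WT, Sept4 stood at rank 6. Sept7 and Sept11 overlapped in the Fst vector group and in KO, and Sept11 and Sept4 did so in the GFP vector group. The other neighbours in the order did not overlap in any of the 4 groups. Sept6 came next with 2.92 ± 0.193 CPM per kb in the Fst vector group, 2.33 ± 0.463 in the GFP vector group, 2.12 ± 0.263 in KO and 2.04 ± 0.281 in WT, followed by Sept10 and then Sept2. Sept2 stood at 0.239 ± 0.0609, 0.117 ± 0.0912, 0.296 ± 0.0483 and 0.242 ± 0.0451 CPM per kb in the Fst vector group, the GFP vector group, KO and WT.

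**Figure D1:**
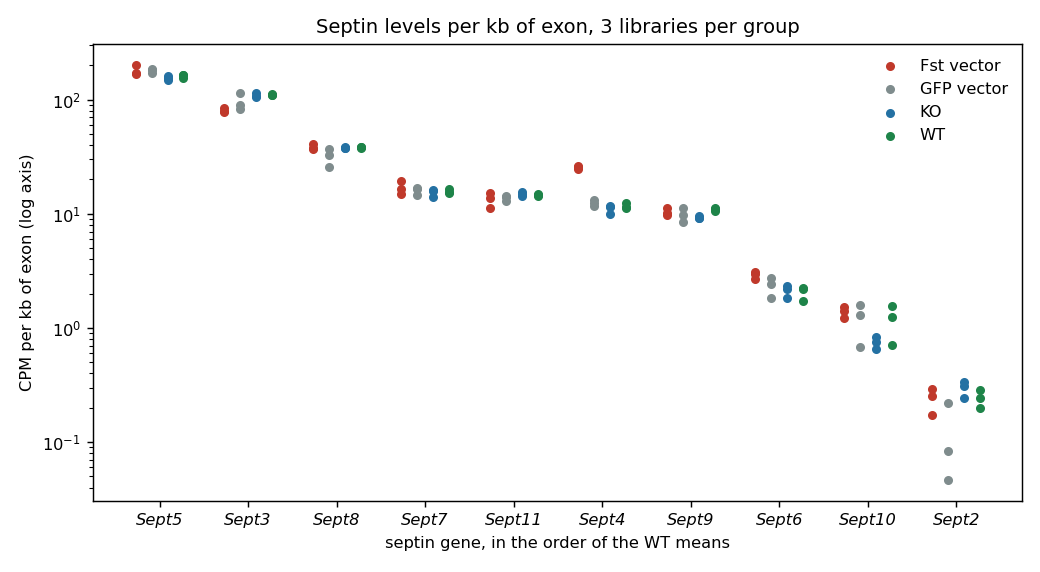
Level of each septin in CPM per kb of exon (log axis), 1 point per library, groups side by side from Fst vector to WT. Sept5 and Sept3 lie highest in all groups, and Sept4 is set apart in the Fst vector group, at 25.5 ± 0.618 against 12.4 ± 0.790 in the GFP vector group.

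Sept4 was at about 2 times its level in other groups in every library of the Fst vector. It had 92.6 CPM in M1, 88.4 in M2 and 91.7 in F of the Fst vector group, against 47.0 in M1, 41.4 in M2 and 44.0 in F of the GFP vector group. It had 35.3 CPM in M1, 41.9 in F1 and 40.7 in M2 of KO, against 40.0 in M1, 41.1 in F1 and 44.7 in M2 of WT. All 3 Fst vector libraries lay above the 9 others, while the 9 others overlapped across their groups. The Fst vector group differed from the GFP vector group by 1.01 ± 0.11 on the log2 scale (SE, edgeR coefficient), the value that led to the choice of the family. Over all genes of this comparison 12 of 15034 were called at adjusted p under 0.05 (0.0798%), 141 with the replicate block (0.938%) and 249 of 14710 with DESeq2 (1.69%). That Sept4 is among them follows from the choice of the family, and nothing is read from it. Its place in the edgeR list was lost when GFP M2, GFP F, Fst M1, Fst M2 or Fst F was left out, while the log2 change stayed between 0.95 and 1.06 when any library was left out.

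Sept4 took a larger part of the family with the Fst vector, while the sum of the family differed little. Its share of all septin counts was 4.57% in M1, 4.42% in M2 and 4.60% in F of the Fst vector group, against 2.17%, 2.09% and 2.40% in M1, M2 and F of the GFP vector group. The widest exact binomial 95% interval of a library in those groups, which covers counting error only, was that of Fst F, 4.29 to 4.91%. In KO the share was 1.69% in M1, 2.11% in F1 and 2.05% in M2, and in WT it was 1.91% in M1, 2.01% in F1 and 2.16% in M2. The summed level of the family was 2008 ± 16.9 CPM in the Fst vector group, 1994 ± 167.9 CPM in the GFP vector group, 2018 ± 58.0 CPM in KO and 2069 ± 23.3 CPM in WT (SD, n = 3 each). Without Sept4 the sum was 1917 ± 15.9, 1950 ± 166.2, 1979 ± 61.4 and 2027 ± 23.5 CPM in the same groups.

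**Figure D2:**
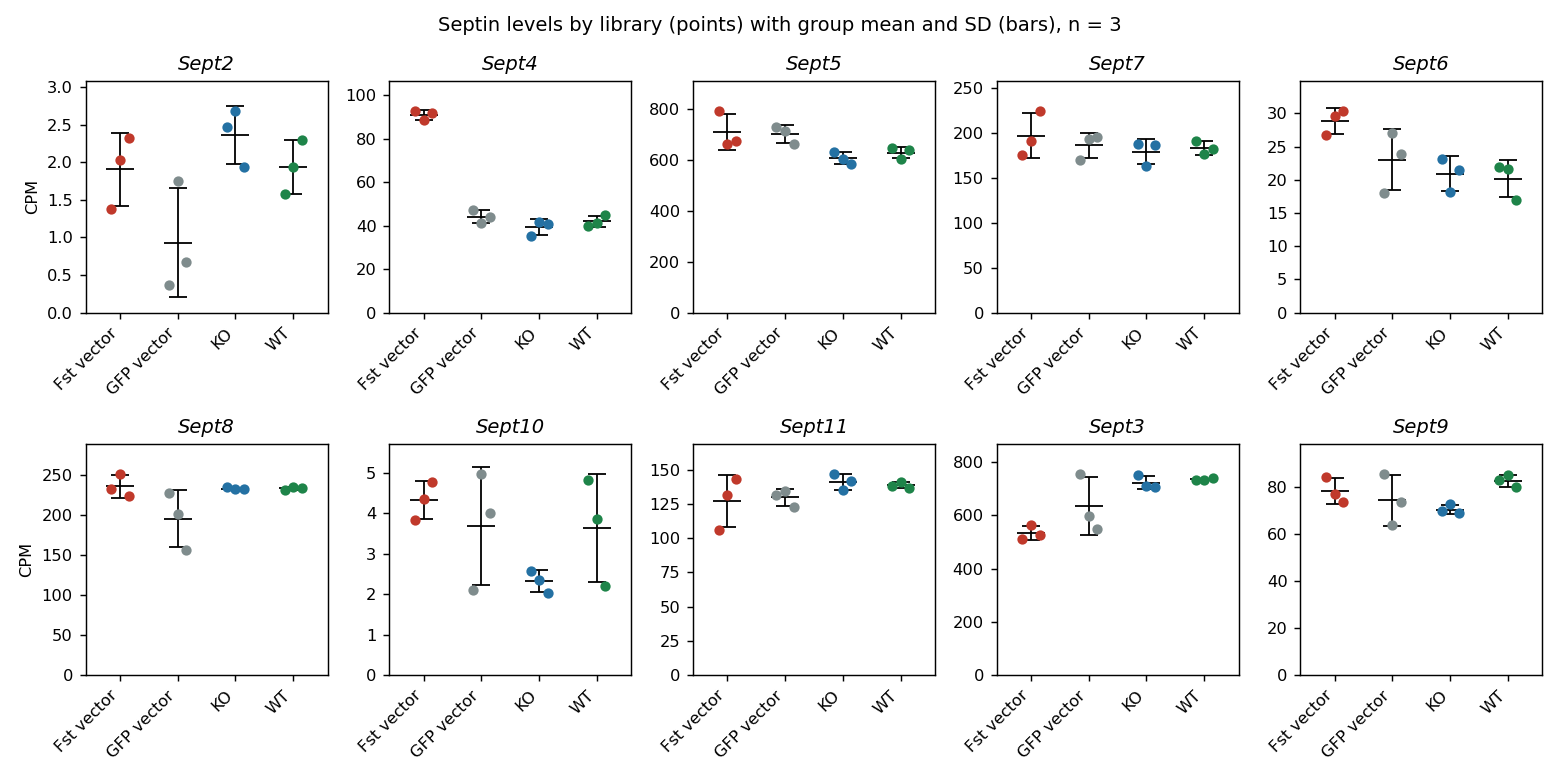
CPM of each septin in each library (points), with group means and SD (bars, n = 3), the axis of each gene starting at 0. The 3 Fst vector libraries of Sept4, at 88.4 to 92.6 CPM, lie above all others, and no other septin sets the Fst vector group apart from the GFP vector group.

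Oligodendrocyte markers were also higher in the Fst vector libraries, in a smaller proportion. The 9 markers (Mbp, Mog, Mobp, Mag, Cnp, Mal, Cldn11, Opalin and Ermn, proteins of myelin and of the cells that make it) summed to 1244, 1198 and 1424 CPM in Fst M1, M2 and F, against 925.0, 1068 and 947.8 CPM in GFP M1, M2 and F. In KO they summed to 726.8 to 801.0 CPM and in WT to 724.3 to 789.8 CPM. The sums of the vector groups did not overlap, and their means differed by a ratio of 1.32. Of the 9 markers, 7 had a positive log2 change between the vector groups, with a median of 0.33 beside 0.01 over all genes tested, and 0 were called. Cnp, a myelin enzyme, averaged 113.5 ± 13.8 CPM with the Fst vector and 82.6 ± 6.97 CPM with the GFP vector (SD, n = 3 each). Ermn, a late marker of myelinating cells, had means in the other order, 13.5 ± 3.81 CPM with the Fst vector and 20.7 ± 10.3 CPM with the GFP vector, and its libraries overlapped. Per 100 CPM of these markers, Sept4 stood at 7.44, 7.38 and 6.44 CPM in Fst M1, M2 and F, against 5.08, 3.88 and 4.64 CPM in GFP M1, M2 and F, which do not overlap and whose means differ by a ratio of 1.56. In KO it stood at 4.83 to 5.60 and in WT at 5.38 to 5.67 CPM per 100 CPM of the markers. The Sept4 values in the vector group ratios are those that chose the family, so the ratios are a description. Mbp gave most of the marker sum in each group.

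The summed astrocyte markers overlapped between the vector groups and spread widely among the GFP vector libraries. The 8 markers (Gfap, Aqp4, Aldh1l1, Slc1a2, Gja1, Slc1a3, Aldoc and Sox9) summed to 4006, 4531 and 4896 CPM in Fst M1, M2 and F, against 3843, 5473 and 8716 CPM in GFP M1, M2 and F. In KO they summed to 4352 to 4447 CPM and in WT to 4390 to 4505 CPM. GFP F had the highest sum and GFP M1 the lowest. Among the GFP vector libraries the sum had an SD of 2481 CPM, and Gfap one of 2251 CPM. Not every marker followed the sum, as Slc1a3 had 462.2 CPM in GFP F and 493.3 CPM in GFP M1. Of the 8 markers, 4 had a positive and 4 a negative log2 change between the vector groups, with a median of 0.01. The largest by size were those of Gfap and Aqp4, both negative. Gfap, the intermediate filament gene of astrocytes, averaged 755.4 ± 240.7 CPM with the Fst vector and 2328 ± 2251 CPM with the GFP vector, and Aqp4, their water channel, 126.7 ± 32.5 CPM with the Fst vector and 216.4 ± 134.1 CPM with the GFP vector (SD, n = 3 each). Only Gja1 of the 8 had libraries that did not overlap, as did 10.5% of all genes tested in the same direction. It averaged 190.5 ± 15.8 CPM with the Fst vector and 151.3 ± 10.2 CPM with the GFP vector (SD, n = 3 each). The part of the oligodendrocyte and astrocyte markers in the level of Sept4 was not tested. The 6 microglia markers summed to 219.1 to 271.4 CPM with the Fst vector and 249.9 to 335.8 CPM with the GFP vector, with a negative log2 change in 6 of 6 and a median of -0.31. The largest by size were Tmem119 at -0.53 ± 0.23 and C1qa at -0.41 ± 0.27 (log2 change, SE). No cell type list had a member called in either comparison.

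**Figure D3:**
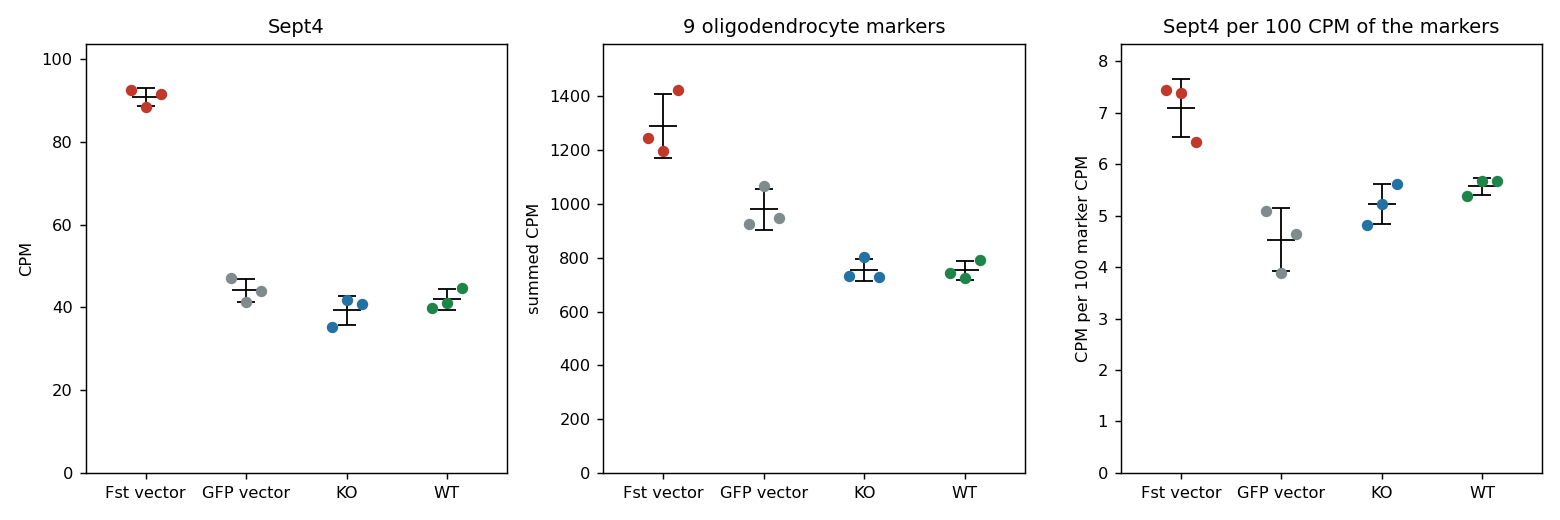
Sept4 in CPM (left), the summed CPM of 9 oligodendrocyte markers (middle) and Sept4 per 100 CPM of these markers (right), 1 point per library with group mean and SD (n = 3). Sept4 and the markers are both higher in the Fst vector libraries, and the ratio there, 6.44 to 7.44, also lies above the 3.88 to 5.08 of the GFP vector libraries. As Sept4 chose the family by this comparison, the ratio is a description.

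The other members of the Sept2 subgroup did not set the Fst vector group apart from all others. Sept5, a binding partner of the presynaptic protein syntaxin (ENSMUSG00000072214, chromosome 16, 18620502 to 18629954), had 792.4, 662.3 and 674.7 CPM in Fst M1, M2 and F, against 731.3, 714.4 and 664.6 CPM in GFP M1, M2 and F. Both vector groups lay above the 585.0 to 632.7 CPM of KO and the 604.1 to 645.8 CPM of WT, but these groups come from separate tables, so vector treatment cannot be told apart from table. Between the vector groups its log2 change was -0.02 ± 0.13 (SE). Sept5 shares 1902 bases of exon on the same strand with Gp1bb, a platelet glycoprotein gene, and reads there cannot be told apart. Gp1bb had 30.1 CPM in Fst M1 and 38.4 CPM in GFP F and 17.7 to 24.4 CPM in the 10 other libraries.

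Sept2, known for filaments at the cleavage furrow and at the base of cilia (ENSMUSG00000026276, chromosome 1, 93478964 to 93510260), was listed with few counts. It had 14, 20 and 21 counts in Fst M1, M2 and F, against 3, 18 and 7 counts in GFP M1, M2 and F, and 15 to 26 counts in the 6 libraries of KO and WT. The groups overlapped, with a log2 change of 0.95 ± 0.53 (SE) between the vector groups, and this value became 1.77 when GFP M2 was left out. GENCODE M21 places another gene of the same symbol (ENSMUSG00000116048) inside it on the same strand, sharing 3335 bases of exon. That gene was in neither count table, so the level of Sept2 is uncertain and need not be that of the whole locus.

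In the Sept3 subgroup, Sept3 was lowest in the Fst vector group. Sept3, which is found at neuronal terminals (ENSMUSG00000022456, chromosome 15, 82274893 to 82294574), had 512.5, 564.3 and 527.2 CPM in Fst M1, M2 and F, against 754.9, 598.0 and 547.8 CPM in GFP M1, M2 and F. In KO it had 705.8 to 750.8 CPM and in WT 732.0 to 737.8 CPM. KO and WT come from a separate table, so vector treatment cannot be told apart from table here. GFP F lay inside the range of the Fst vector libraries, and GFP M1 stood at the level of KO and WT. The log2 change between the vector groups was -0.28 ± 0.15 (SE), and -0.13 without GFP M1. Sept9, which binds microtubules and actin fibres (ENSMUSG00000059248, chromosome 11, 117199661 to 117362325), had 84.5, 77.4 and 73.7 CPM in Fst M1, M2 and F, against 85.7, 64.1 and 73.7 CPM in GFP M1, M2 and F.

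In the Sept6 subgroup and for Sept7, the vector groups overlapped for every member. Sept8, a septin of neurons and of myelin (ENSMUSG00000018398, chromosome 11, 53519257 to 53549565), had 231.6, 250.7 and 223.0 CPM in Fst M1, M2 and F, against 226.9, 201.1 and 156.4 CPM in GFP M1, M2 and F, with a log2 change of 0.23 ± 0.15 (SE), which became 0.10 without GFP F and 0.37 without GFP M1. It was even in KO (231.9 to 233.8 CPM) and WT (231.1 to 234.7 CPM), and GFP F was the lowest of the 12 libraries. Sept6, the X-linked member (ENSMUSG00000050379, 36911326 to 36991794), had 26.7, 29.6 and 30.3 CPM in Fst M1, M2 and F, against 18.1, 27.1 and 23.9 CPM in GFP M1, M2 and F, with a log2 change of 0.29 ± 0.17, which became 0.15 without GFP M1. GFP M2 lay just inside the range of the Fst vector libraries. Sept7, the septin that most rods contain (ENSMUSG00000001833, chromosome 9, 25252439 to 25308571), ranged from 175.0 to 223.7 CPM with the Fst vector and from 169.6 to 195.0 CPM with the GFP vector. Sept11, which occurs in dendrites (ENSMUSG00000058013, chromosome 5, 93093437 to 93176447), ranged from 106.1 to 143.0 CPM with the Fst vector and from 122.8 to 134.5 CPM with the GFP vector. Sept10 (ENSMUSG00000019917, chromosome 10, 59141627 to 59221847) was scarce, with 39 to 43 counts in the Fst vector libraries and 17 to 51 counts in the GFP vector libraries.

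Over the 10 members, 7 had a positive log2 change between the vector groups, with a median of 0.11 beside 0.01 over all genes tested, and 1 member, Sept4, had libraries that did not overlap. Sept4, whose rise chose the family, is included in these values and in the pair counts below, so both are a description. With the Fst vector, libraries lay above those of the GFP vector without overlap for 10.5% of all genes tested. Between libraries of the same name (M1, M2 and F), Sept2, Sept4, Sept6 and Sept8 were higher and Sept3 was lower with the Fst vector in 3 of 3 pairs, so 5 of 10 members went one way, beside 38.4% of all genes tested. After the 1.01 of Sept4 and the 0.95 of the scarce Sept2, the next positive change was the 0.29 of Sept6. Of the septins outside the family as defined here, Sept1 was scarce, with 32 to 56 counts with the Fst vector, 28 to 55 with the GFP vector, 21 to 35 in KO and 25 to 31 in WT. Per length it stood at 1.49 ± 0.431 CPM per kb in the Fst vector group, 1.63 ± 0.347 in the GFP vector group, 1.14 ± 0.286 in KO and 0.970 ± 0.0202 in WT, beside 1.39 ± 0.150, 1.19 ± 0.469, 0.747 ± 0.0883 and 1.17 ± 0.426 for Sept10 in the same groups. Sept12 had 0 counts in all libraries and Sept14 had 2 counts in all, both in GFP F, where a count of 0 allows up to 0.265 to 0.371 CPM (3 counts of a library's total, counting error only).

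KO against WT asks whether septin transcripts differ when follistatin is missing, and these 6 libraries were not part of the rule that chose the family. No septin was called: 0 of 10 passed at adjusted p under 0.05 by edgeR's quasi-likelihood test, and DESeq2 and the replicate block also called 0. Over all 14919 genes edgeR called 4 (0.0268%), with the replicate block 23 (0.154%), and DESeq2 called 3 of 27192 (0.0110%). At an unadjusted p under 0.05 there were 2 septins, Sept9 and Sept10, both with a negative log2 change, beside 889 of all genes (5.96%). Of the 10 members 4 had a positive and 6 a negative log2 change, and the median was -0.01 beside 0.00 over all genes (-8.49e-04). The libraries of KO and WT did not overlap for 1 member, Sept9, lower in KO, against 7.04% of all genes tested that were lower without overlap.

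Sept4 did not differ between KO and WT beyond the spread of the libraries. It averaged 39.3 ± 3.49 CPM in KO and 41.9 ± 2.49 CPM in WT (SD, n = 3 each), a log2 change of -0.08 ± 0.09 with a 95% interval of -0.26 to 0.11 (SE, edgeR quasi-likelihood, adjusted p = 0.960). The interval does not reach a change of the size seen between the vector groups in either direction. That size is the value that chose the family, and the vector groups differed more in Fst. Fst averaged 186.4 CPM with the Fst vector and 0.0325 CPM with the GFP vector, beside 0.282 CPM in KO and 3.87 CPM in WT. Sept9 had 69.8, 72.8 and 69.1 CPM in KO M1, F1 and M2, against 83.3, 85.2 and 80.0 CPM in WT M1, F1 and M2. Each KO library lay below each WT library, with a log2 change of -0.21 ± 0.07 and an interval of -0.35 to -0.08, which did not pass the adjustment over all genes (edgeR quasi-likelihood, unadjusted p = 0.00365, adjusted p = 0.522). Its adjusted p ran from 0.273 to 0.999 over the alternatives, with a negative change in 13 of 13.

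Sept10 had 24, 22 and 20 counts in KO M1, F1 and M2, against 46, 36 and 25 counts in WT M1, F1 and M2. KO M1, at 2.58 CPM, overlapped WT M2, at 2.21 CPM, and the log2 change of -0.61 ± 0.30 did not pass (edgeR quasi-likelihood, unadjusted p = 0.0495, adjusted p = 0.837). It became -0.35 without WT M1 and -0.89 without WT M2. The abundant septins were measured closely. Sept5 averaged 607.8 ± 23.9 CPM in KO and 629.3 ± 22.2 CPM in WT, and Sept3 722.3 ± 24.7 CPM in KO and 734.5 ± 2.97 CPM in WT (SD, n = 3 each). The 95% intervals of the log2 changes of Sept3, Sept5, Sept7, Sept8 and Sept11 lay within -0.15 and 0.16, so larger differences in these genes fall outside their intervals. The intervals of the scarcer genes were wider, -1.22 to -0.0014 for Sept10, -0.34 to 0.92 for Sept2 and -0.17 to 0.32 for Sept6.

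**Figure D4:**
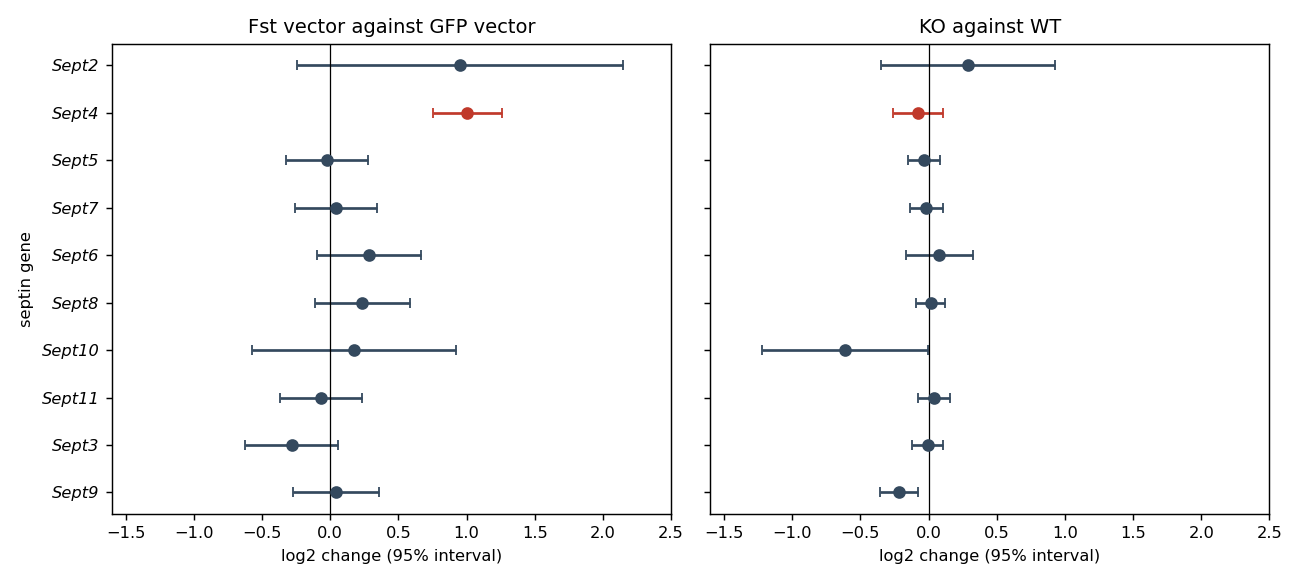
Log2 change of each septin with its 95% interval from edgeR, for the Fst vector against the GFP vector (left) and for KO against WT (right), Sept4 in red. Sept4 lies at 1.01 on the left, the comparison that chose it, and at -0.08 on the right, where no septin passed the adjustment.

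Genes that encode known partners of septins were also examined: the GTPase Cdc42 and its effectors Cdc42ep1 to Cdc42ep5 (Borg proteins, which bind septin rods), the scaffold Anln, the kinase Cit, the Sept5 partner Stx1a, the ARTS target Xiap, and Slc1a3, the glial glutamate transporter. Of 11 genes 10 were tested, all but Cdc42ep5, and 0 were called in either comparison. Between the vector groups 5 had a positive and 5 a negative log2 change (median 0.01 beside 0.01 over all genes). The largest by size were those of Cdc42ep4, the effector found with Sept4 in glia, at 0.32 ± 0.45, and Cit, at -0.30 ± 0.32 (SE). Cdc42ep4 had 100.5, 80.0 and 44.8 CPM in Fst M1, M2 and F, against 88.7, 56.5 and 31.2 CPM in GFP M1, M2 and F, so the groups overlapped while the Fst vector library was the higher of each same-named pair. That order within all pairs held for 3557 of 15034 genes tested. In KO against WT 6 were positive and 4 negative (median 0.04), the largest being Cdc42ep1 at 0.24 ± 0.21 and Cdc42ep3 at 0.22 ± 0.42 (SE). Libraries of KO and WT did not overlap for Xiap and Slc1a3, both lower in KO, as were 7.04% of all genes tested. Xiap averaged 90.1 ± 6.44 CPM in KO and 101.1 ± 2.27 CPM in WT, and Slc1a3 580.7 ± 11.7 CPM in KO and 631.8 ± 20.9 CPM in WT (SD, n = 3 each). Neither passed the edgeR quasi-likelihood test (adjusted p = 0.786 and 0.880).

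The genes whose profile over the 12 libraries was most like that of Sept4 were found by the root mean square difference between log2 CPM profiles, each centred on its own mean, among 11635 other genes with a mean of at least 5 CPM. The profiles used TMM scaling and a prior count of 2, and all genes ranked were tested in both comparisons. The closest were Slc9a3r2 (0.14), Cdk2ap1 (0.16), Ehbp1l1 (0.20), Fbxo2 (0.20) and Vat1 (0.21), where the median over the genes ranked was 0.51. The closest septin was Sept6, at 0.38. Slc9a3r2, a membrane scaffold gene, averaged 44.4 ± 1.41 CPM in the Fst vector group, 26.2 ± 2.76 CPM in the GFP vector group, 20.3 ± 0.673 CPM in KO and 22.8 ± 1.32 CPM in WT (SD, n = 3 each). Cdk2ap1, which encodes a protein that binds the kinase Cdk2, averaged 47.6 ± 4.33 CPM in the Fst vector group, 27.6 ± 1.18 CPM in the GFP vector group, 21.6 ± 0.378 CPM in KO and 22.9 ± 3.35 CPM in WT. These genes were chosen by the same libraries that chose Sept4, so their likeness is a description.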

How the data were processed

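Dentate gyrus RNA came as 12 libraries, with 3 for each of 4 groups taken from the descriptions. Raw counts of reads by Ensembl gene were deposited by the authors, per the file headers, in a table for KO and WT and another for the vector groups. GRCm38 was the build, per the submitters' processing notes; aligner, counter, annotation and use of strand remain not given in the sources used here. Lines that name no gene (6 for KO and WT, 12 for the vector groups) held 0 counts and were left out. Symbols matched 52403 gene IDs.

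CPM are counts divided by library totals. Log2 CPM for the profiles and for the correlations of deviations used TMM scaling over the 12 libraries and a prior count of 2. Each comparison was fitted on its own 6 libraries across all genes with edgeR 4.0.16 (R 4.3.3): TMM, default filterByExpr, robust quasi-likelihood, Benjamini-Hochberg adjustment, threshold 0.05. All 10 septins passed the filter. SE is the size of the change divided by the square root of F, and intervals use the fit's degrees of freedom. The fit was tested on simulated data with the same spread set for all genes, which the real libraries need not share. DESeq2 1.42.0, other scaling, no filter, a replicate block, sex by title, ribosomal RNA share and leaving out each library were the alternatives. A gene of the oligodendrocyte list and a gene of the partner list are not reported here, and the lists' values were computed without them. Members, gene lists and tests were chosen with earlier results of these data known. Named were all septins, the 2 genes of largest change in each partner or marker list described, and the 5 genes most like Sept4. Partners without overlap in KO against WT, and the astrocyte marker without overlap between the vector groups, were added after their values were seen.

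Same-named libraries of the vector groups deviated together, with correlations of 0.325 for M1, 0.138 for M2 and 0.390 for F, so their names were taken to pair them. This is a reading of the data and stands in no label. Libraries of different names had correlations from -0.461 (Fst F with GFP M1) to 0.119 (Fst M2 with GFP M1), the last close to that of M2. F was the only female library of each vector group, so for F pairing and sex cannot be told apart. Directions within these pairs were counted after the values were seen. No 2 replicates agreed within sampling noise (chi-square per degree of freedom 2.39 to 31.5).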

Additional observations from a re-analysis of the deposited data

How the results depend on the processing

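In KO against WT, 0 septins were called under any of the 13 alternatives, and the log2 changes of Sept4, Sept9 and Sept10 stayed negative in all of them. The sign of Sept3, Sept6, Sept7 and Sept8, all near 0, turned under some. Between the vector groups the log2 change of Sept4 stayed between 0.95 and 1.06 in 13 of 13, and the number of septins called ran from 0 to 1 when 1 library was left out. The number of all genes called moved more. In KO against WT it was 4, and it was 46 with no filter on low counts, 23 with the replicate block, 30 with sex by title and 9 with the share of ribosomal RNA as a term. Leaving out 1 library gave 2 to 17, with 7 without KO M2, 17 without WT F1 and 2 without WT M2. Between the vector groups it was 12, and it was 249 with DESeq2, 230 with no filter, 141 with the replicate block and 132 with sex by title. Leaving out 1 library gave 1 to 29, with 2 without Fst M1, 1 without Fst M2, 3 without Fst F, 29 without GFP M1 and 4 without GFP M2. The causes were not tested. The replicate block changed no call of a septin in either comparison. KO and WT libraries of the same name were not read as pairs. Their deviations had correlations of 0.0608 for M1, 0.13 for F1 and -0.0803 for M2, beside 0.178 for KO M1 with WT M2. The value of F1 is close to the 0.138 of M2 in the vector groups, and no label settles either reading. Counts under about 50 per library limit Sept2 and Sept10.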
